A study of Mus musculus with 8 samples.

Results

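Cardiac fibroblast marker genes are described here as they were measured by RNA-seq in whole hearts. The 10 genes were taken as the rows of the count table whose Entrez number carries the symbol Pdgfra, Tcf21, Dcn, Lum, Gsn, Ddr2, Dpt, Mfap5, Pi16 or Mfap4, which makes 10 of 23282 rows. The samples were 4 AE3-null and 4 wild-type libraries, numbered as replicates 1 to 4 of each genotype, all from male FVB/N mice aged 4 months. Slc4a3 encodes AE3, an anion exchange protein that swaps chloride for bicarbonate across the membrane of cardiac myocytes. The labels name no treatment and do not describe the null allele. The design text gives 4 mice per genotype, and no label ties a library to an animal, so the p-values speak only of the scatter among libraries, which may be technical.

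Fibroblasts are the main matrix-producing cells of the heart. In the adult mouse they are recognised by the receptor Pdgfra and the transcription factor Tcf21, and they secrete collagens together with proteins that organise collagen and elastic fibres. Across mouse organs, fibroblasts of the adventitia around vessels carry high levels of Pi16 and Dpt and are often described as progenitor-like. None of these markers is exclusive to fibroblasts: Gsn in particular is made by many cell types, muscle included.

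The markers were present in every library. Their counts ranged from 128 to 62082 reads per gene and library, and all 10 passed the filter on low counts, as did 14136 genes in all. Total counts per library were 9133628 to 27078351 (AE3-null) and 14875281 to 19080858 (wild-type). Slc4a3 stood at 31.5 to 34.6 CPM (read counts scaled to a common library size with TMM composition factors) in AE3-null hearts and at 378 to 389 CPM in wild-type hearts, so each library matched its label. Wild-type replicate 3 stood apart on these markers: it was the highest of the 4 wild-type libraries for 6 of the 10 genes and the lowest for none. The calls and overlaps that turn on it are also given without it. As it was picked on these same markers, values without it are a description and add no support.

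The summed level of the group, most of which is Gsn, overlapped between genotypes only through wild-type replicate 3. The summed level of the 10 markers was 3435 to 3519 CPM in AE3-null hearts and 3366 to 3679 CPM in wild-type hearts, with means of 3484 ± 39.7 CPM in AE3-null hearts and 3465 ± 145 CPM in wild-type hearts (SD, n = 4 each). Wild-type replicate 3 stood at 3679 CPM, and wild-type replicates 1, 2 and 4, at 3429.95, 3387 and 3366 CPM, lay below all 4 AE3-null libraries, the first of them narrowly (3435 CPM in AE3-null replicate 2). These sums are a description with no test. Gsn makes up most of them, at means of 2254 CPM in AE3-null hearts and 2275 CPM in wild-type hearts. Within the group the genes differed. Pi16, Mfap5 and Dpt fell in AE3-null hearts, by 0.31, 0.25 and 0.14 on the log2 scale, while Lum had a log2 fold change of 0.31 that did not pass the threshold. Thus 3 of 10 markers were called by edgeR's quasi-likelihood test at an adjusted p under 0.05, all 3 lower, beside 6.47% of all tested genes called and 3.31% called lower. The median log2 fold change of the markers was -0.03, and that of all tested genes was -0.0018. No marker was called higher, beside 3.16% of all tested genes, and 4 markers had an unadjusted p under 0.05, beside 21% of tested genes. In bulk tissue, fewer fibroblasts and less RNA per fibroblast cannot be told apart.

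Promoters of Pi16 and Dpt, which fell, and of Pdgfra, which did not pass the threshold, are shown as those of 2 markers that fell and of the receptor used below as the common denominator. They are from RefSeq on build GRCm38.p6, not the build of the counts (mm9), run 5′ to 3′ on the gene's strand from 250 bases before the start site to 50 after it, and have each E-box, the CANNTG site that basic helix-loop-helix factors such as Tcf21 recognise, in capitals.
Pi16 (chr17:29318632-29318931, plus strand): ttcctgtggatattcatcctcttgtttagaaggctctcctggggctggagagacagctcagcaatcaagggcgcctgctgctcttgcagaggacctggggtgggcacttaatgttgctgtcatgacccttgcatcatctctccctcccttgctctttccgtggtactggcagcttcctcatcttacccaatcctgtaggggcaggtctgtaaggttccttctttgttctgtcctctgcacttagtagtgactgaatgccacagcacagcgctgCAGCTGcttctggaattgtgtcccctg
Dpt (chr1:164796413-164796712, plus strand): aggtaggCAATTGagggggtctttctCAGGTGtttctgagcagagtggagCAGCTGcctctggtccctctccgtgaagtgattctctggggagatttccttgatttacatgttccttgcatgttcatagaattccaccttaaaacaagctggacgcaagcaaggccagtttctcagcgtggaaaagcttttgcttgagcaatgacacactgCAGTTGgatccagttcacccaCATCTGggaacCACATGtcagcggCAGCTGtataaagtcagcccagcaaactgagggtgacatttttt
Pdgfra (chr5:75152001-75152300, plus strand): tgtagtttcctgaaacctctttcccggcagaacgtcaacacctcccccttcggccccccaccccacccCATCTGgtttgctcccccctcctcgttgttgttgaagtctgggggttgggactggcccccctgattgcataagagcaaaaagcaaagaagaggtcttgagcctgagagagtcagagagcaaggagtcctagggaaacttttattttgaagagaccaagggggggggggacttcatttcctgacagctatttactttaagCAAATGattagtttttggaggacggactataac

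An entry was found for 6 of the 10 genes, and Dcn, Lum, Mfap5 and Mfap4 had none. The Pi16 promoter held 1 E-box, 24 bases after the start site, the Pdgfra promoter held 2 and the Dpt promoter held 7, of which the last, at base 7, lies just before a TATAAA run at base 13. The palindromic motif CANNTG, which reads the same on both strands, was in 72.3% of 32851 promoters of this length, at least 2 copies were in 39.6% and at least 7 in 0.177%. The promoter of Tcf21 itself held none. The TATA box TATAAA was in 13.6% of all promoters on either strand. In Ddr2 it lay on the opposite strand. The TEAD motif CATTCC (14.7% of promoters) and the AP-1 motif TGANTCA (7.81%), searched on both strands, were in none of the 6 genes' promoters. The motifs overlapped nowhere in these sequences, and a match is a description of the letters only.

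The 2 receptors and the transcription factor that define resident fibroblasts came first. Pdgfra, the receptor for platelet-derived growth factors, stood at 69.7, 76.3, 74.7 and 71.4 CPM in AE3-null replicates 1 to 4, against 67.4, 63.3, 76.9 and 66.3 CPM in wild-type replicates 1 to 4. The genotypes overlapped only through wild-type replicate 3, the highest library of all, and the log2 fold change was 0.09 (SE 0.056, 95% interval -0.03 to 0.21, edgeR adjusted p 0.384). Without wild-type replicate 3 it was 0.15 and past the threshold (edgeR adjusted p 0.0411), the 1 call of Pdgfra among 17 alternatives.

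Ddr2, a receptor kinase that binds fibrillar collagen, leaned the other way. It stood at 74.8, 79.0, 81.7 and 78.0 CPM in AE3-null hearts, against 84.2, 77.7, 88.2 and 83.8 CPM in wild-type hearts. Wild-type replicate 2 lay among the AE3-null libraries, and the log2 fold change of -0.09 (SE 0.046, 95% interval -0.19 to 0.0047) was not called (edgeR adjusted p 0.263). Ddr2 overlaps another counted gene, 3110045C21Rik, so without strand its reads are uncertain.

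Tcf21, required in the mouse for fibroblasts to form from the epicardium, was the rarest marker in CPM. It stood at 12.00, 13.8, 15.3 and 12.8 CPM in AE3-null hearts, against 13.7, 11.8, 13.4 and 12.2 CPM in wild-type hearts. The ranges overlapped and the log2 fold change was 0.07 (SE 0.088, 95% interval -0.12 to 0.26, edgeR adjusted p 0.720). It was also the most variable marker among AE3-null libraries, with an SD of 10.6% of the mean. Gsn, which encodes the actin-severing protein gelsolin, was the most abundant marker and moved least. Its levels were 2231, 2187, 2310.3 and 2286 CPM in AE3-null hearts and 2222, 2253, 2408 and 2217 CPM in wild-type hearts. Between genotypes Gsn had a log2 fold change of -0.01 (SE 0.034), with a 95% interval of -0.09 to 0.06 and an edgeR adjusted p of 0.872.

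**Figure D1:**
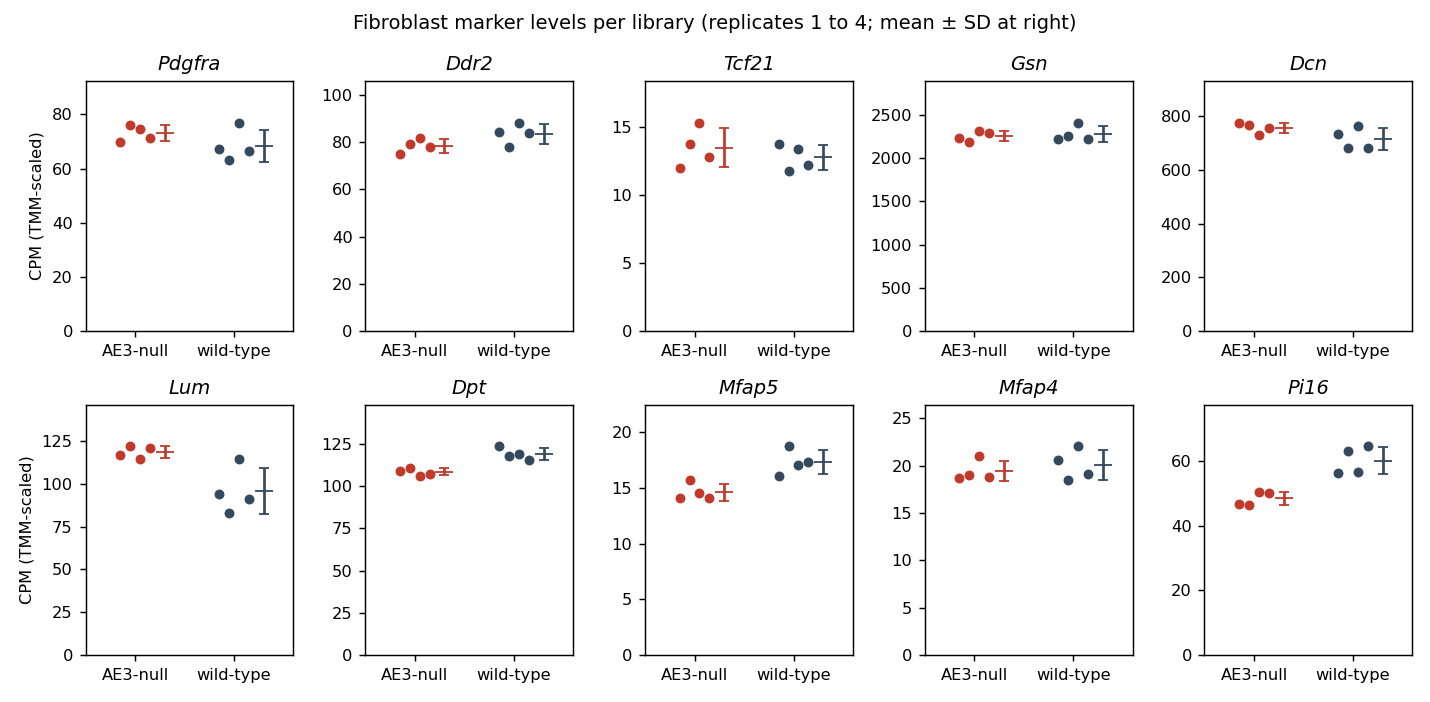
Level of each of the 10 markers in CPM (y axis, from 0) in AE3-null and wild-type libraries, replicates 1 to 4 from left to right in each group, with mean and SD to the right of the points. Pi16, Mfap5 and Dpt lie lower in every AE3-null library than in any wild-type library, and for Lum wild-type replicate 3 sits beside the AE3-null libraries.

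The collagen-binding proteoglycans differed between themselves. Lum encodes lumican, which regulates the assembly of collagen fibrils. Its level was 116.8, 121.9, 114.8 and 121.3 CPM in AE3-null hearts, against 94.3, 83.0, 114.5 and 91.3 CPM in wild-type hearts. The genotypes did not overlap, but by a margin of only 114.8 against 114.5 CPM, since wild-type replicate 3 lay well above the other wild-type libraries. Its log2 fold change was 0.31 (SE 0.085, 95% interval 0.12 to 0.50) with an edgeR adjusted p of 0.0657. Lum was called under 4 of 17 alternatives, among them DESeq2 (adjusted p 0.00368) and limma voom (adjusted p 0.0247). It was not called with no low-count filter (edgeR adjusted p 0.104) or with total counts only (0.0761). Nor was it called without any single library other than wild-type replicate 3 (edgeR adjusted p 0.0681 to 0.178). Without wild-type replicate 3 its log2 fold change was 0.41 (edgeR adjusted p 1.74e-05).

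Dcn encodes decorin, which coats collagen fibrils and binds TGF-beta, and lies beside Lum on chromosome 10. It stood at 775, 765, 730.2 and 753 CPM in AE3-null hearts, against 732, 679, 763 and 679 CPM in wild-type hearts. Wild-type replicates 1 and 3 lay within the AE3-null range. The log2 fold change of 0.08 (SE 0.040, 95% interval -0.0011 to 0.17) was not called (edgeR adjusted p 0.243). Leaving out wild-type replicate 3 made it 0.12 and past the threshold (edgeR adjusted p 0.0410), the 1 call of Dcn among 17 alternatives.

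The secreted matrix genes Dpt and Mfap5 fell. Dpt encodes dermatopontin, a small matrix protein that binds decorin. It measured 109, 111, 106 and 107 CPM in AE3-null hearts, against 124, 118, 119 and 115 CPM in wild-type hearts. All AE3-null libraries lay below all wild-type libraries, and the difference was small and even, with a log2 fold change of -0.14 (SE 0.036, 95% interval -0.21 to -0.06, edgeR adjusted p 0.0345). Across the alternatives it was -0.15 to -0.12. Among omissions of 1 library, the call of Dpt held only without wild-type replicate 3 (edgeR adjusted p 0.0325). Omitting AE3-null replicates 1, 2, 3 and 4 in turn gave edgeR adjusted p-values of 0.0759, 0.0510, 0.102 and 0.109, and omitting wild-type replicates 1, 2 and 4 gave 0.117, 0.0689 and 0.0565. With total counts in place of TMM it was 0.0917.

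Mfap5 encodes a glycoprotein of fibrillin microfibrils, also called MAGP-2. Its level was 14.2, 15.7, 14.5 and 14.1 CPM in AE3-null hearts, against 16.1, 18.7, 17.1 and 17.4 CPM in wild-type hearts. AE3-null replicate 2 and wild-type replicate 1 came nearest to each other, and the groups did not overlap. Mfap5 had a log2 fold change of -0.25 (SE 0.071, 95% interval -0.40 to -0.11, edgeR adjusted p 0.0408). It lost its call without AE3-null replicate 1, 3 or 4 (edgeR adjusted p 0.113, 0.0926 and 0.131), without wild-type replicate 2 or 4 (0.115 and 0.108), with total counts only (0.0606) and by DESeq2 (adjusted p 0.0629). Mfap4, another microfibril-associated glycoprotein but of an unrelated, fibrinogen-like fold, did not follow Mfap5. It stood at 18.7, 19.1, 21.1 and 18.9 CPM in AE3-null hearts and at 20.6, 18.5, 22.04 and 19.1 CPM in wild-type hearts. Its log2 fold change was -0.05 (SE 0.070, 95% interval -0.19 to 0.10, edgeR adjusted p 0.772).

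Pi16, a member of the CAP family of secreted and surface proteins, was the marker whose difference depended least on the alternatives run. It stood at 46.8, 46.3, 50.4 and 50.1 CPM in AE3-null hearts, against 56.4, 63.1, 56.6 and 64.5 CPM in wild-type hearts. The nearest libraries of the 2 genotypes were AE3-null replicate 3 and wild-type replicate 1, and the groups did not overlap. The log2 fold change was -0.31 (SE 0.055, 95% interval -0.43 to -0.19, edgeR adjusted p 0.00296), which is 0.806 of the wild-type level. By its p-value Pi16 ranked 147 among 14136 tested genes, and 10.6% of tested genes had a larger change in either direction. The call held under all 17 alternatives, with log2 fold changes of -0.34 to -0.27 and adjusted p-values up to 0.0163.

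**Figure D2:**
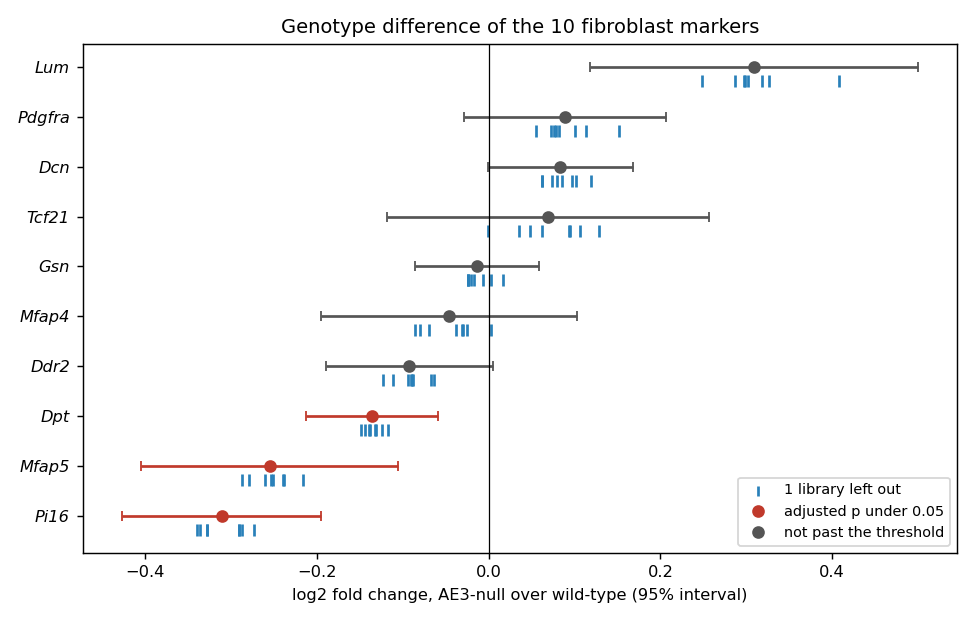
Log2 fold change of each marker, AE3-null over wild-type, with its 95% interval (x axis); red points passed an adjusted p of 0.05, and blue ticks give the value with 1 library left out. The estimates run from -0.31 for Pi16 to 0.31 for Lum, and the tick of Lum farthest to the right, at 0.41, is that without wild-type replicate 3.

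In all, 4 of the 10 markers had genotypes that did not overlap, beside 12.2% of all tested genes. Of these Pi16, Mfap5 and Dpt lay lower in AE3-null hearts, as 6.15% of tested genes did, and Lum lay higher, as 6.1% did. The summed level of the 3 markers that fell was 171 ± 1.15 CPM in AE3-null hearts and 197 ± 2.86 CPM in wild-type hearts (SD, n = 4 each). These 3 were picked by their calls in the same libraries, so the gap between their sums follows from that choice. The other 7, by level mostly Gsn, summed to 3312 ± 40.3 CPM in AE3-null hearts and 3269 ± 147 CPM in wild-type hearts. That wild-type mean rests on replicate 3, at 3486 CPM: wild-type replicates 1, 2 and 4, at 3234, 3187 and 3169 CPM, lay below the lowest AE3-null library, at 3262 CPM. Without wild-type replicate 3, 6 markers were called, Pi16, Mfap5 and Dpt lower and Lum, Dcn and Pdgfra higher. Of the genes then tested 12.1% were called, against 6.47% in the full data. That library was picked for its levels of these same markers, so the added calls are no separate support for a difference. Pi16 was the 1 marker called when AE3-null replicate 1, 3 or 4 was left out (4.11, 4.02 and 2.88% of all tested genes) or wild-type replicate 2 or 4 (4.26 and 3.05%). Pi16 and Mfap5 were the 2 called when AE3-null replicate 2 (4.63%) or wild-type replicate 1 (4.6%) was left out. DESeq2 called Pi16 and Dpt lower and Lum higher (6.82% of tested genes called). Pi16, Mfap5 and Dpt were called lower and Lum higher by limma voom (6.23%) and by edgeR without robust moderation (5.97%). With total counts in place of TMM factors Pi16 alone was called (6.29%). The same 3 markers were called as in the full data with RLE factors (6.44%), with no low-count filter (5.13%), with a minimum count of 50 (7.3%) and without the 10 most abundant genes (6.48%).

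Levels of different genes were compared per kilobase of annotated exons, with all annotated transcripts of a gene merged. That length can exceed the transcript made here, to a different degree for each gene, so the order depends on it. On that scale Gsn led with 714 ± 17.5 CPM per kb in AE3-null hearts and 721 ± 28.6 in wild-type hearts (SD, n = 4 each). It was followed by Dcn with 129 ± 3.28 and 122 ± 7.07, Dpt with 62.9 ± 1.21 and 69.1 ± 1.95, and Lum with 48.5 ± 1.42 and 39.1 ± 5.47 CPM per kb in AE3-null and wild-type hearts. The remaining genes lay at 4.08 (Mfap5) to 10.1 (Mfap4) CPM per kb in AE3-null hearts and at 4.83 (Mfap5) to 10.4 (Mfap4) in wild-type hearts. The matrix genes Dcn, Dpt and Lum thus lay above the receptors Ddr2 (8.46 and 9.01) and Pdgfra (7.29 and 6.83 CPM per kb in AE3-null and wild-type hearts). In that order of wild-type means, 3 neighbouring pairs did not differ beyond the spread of their libraries: Mfap4 and Pi16, Pi16 and Ddr2, and Tcf21 and Mfap5. Ddr2 and Pi16 were in the opposite order in AE3-null hearts, where Pi16 averaged 7.61 CPM per kb, against 9.45 in wild-type hearts.

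Counts relative to Pdgfra in the same library describe the make-up of the marker set without any library scaling, as values with no test. Pi16 gave 0.671, 0.607, 0.675 and 0.702 counts per Pdgfra count in AE3-null hearts, against 0.837, 0.996, 0.736 and 0.973 in wild-type hearts. Mfap5 gave 0.194 to 0.206 in AE3-null hearts and 0.222 to 0.296 in wild-type hearts. Neither gene overlapped between genotypes on this scale. Ddr2 was also separated, at 1.04 to 1.09 counts per Pdgfra count in AE3-null hearts and 1.15 to 1.26 in wild-type hearts. Lum gave 1.54 to 1.70 in AE3-null hearts and 1.31 to 1.49 in wild-type hearts. Mfap4 was separated too, at 0.250 to 0.282 in AE3-null hearts and 0.286 to 0.306 in wild-type hearts. Dpt overlapped through wild-type replicate 3 alone, at 1.42 to 1.57 in AE3-null hearts and 1.55 to 1.86 in wild-type hearts (1.74 to 1.86 without that library). Gsn likewise overlapped through wild-type replicate 3 alone, at 28.7 to 32.0 in AE3-null hearts and 31.3 to 35.6 in wild-type hearts (33.0 to 35.6 without that library). Dcn (9.77 to 11.1 in AE3-null hearts, 9.91 to 10.9 in wild-type hearts) and Tcf21 (0.172 to 0.205 and 0.174 to 0.203) overlapped as well. Relative to the summed counts of the other 9 markers instead, Ddr2 and Mfap4 overlapped between genotypes, Dpt did not, and Pi16, Mfap5 and Lum remained separated.

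**Figure D3:**
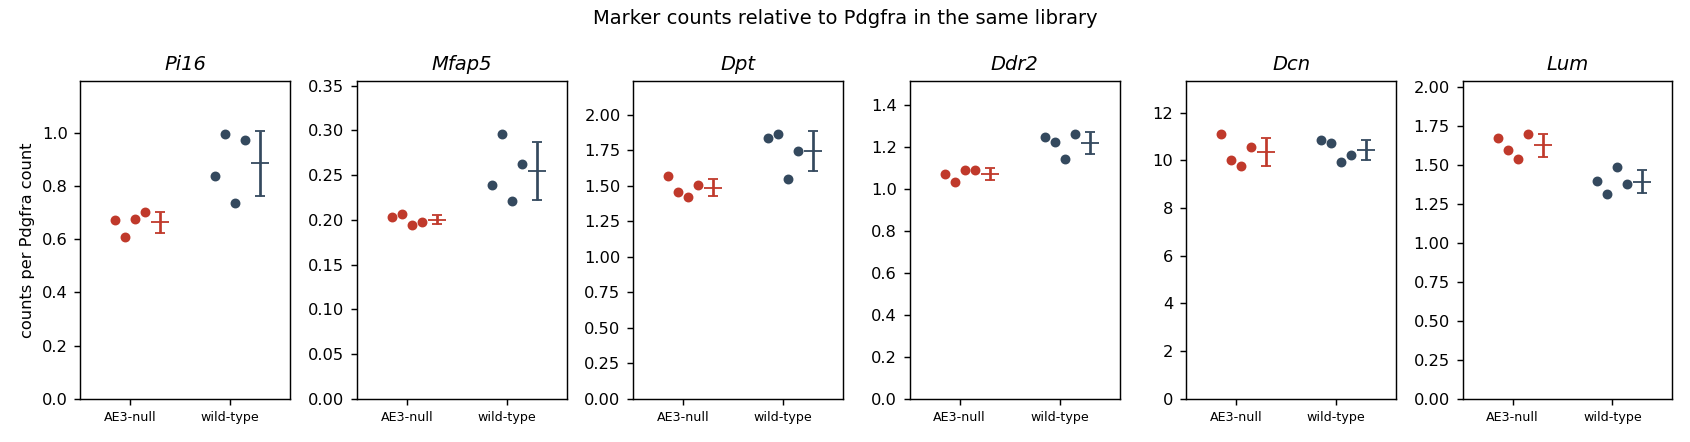
Counts of 6 markers divided by the Pdgfra count of the same library (y axes, from 0), for AE3-null and wild-type libraries, replicates 1 to 4 from left to right, with mean and SD to the right. Pi16, Mfap5 and Ddr2 lie lower and Lum higher in all AE3-null libraries, Dpt overlaps at wild-type replicate 3, and Dcn overlaps.

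Within each genotype the markers did not vary as a single block. As a description over 8 libraries, each marker's log2 level was set against its genotype mean, and the 45 pairs of markers had a median Pearson r of 0.24, from -0.91 to 0.89. The points share library, depth and the centring on 4 libraries. Counting scatter was not removed. It weighs most on Tcf21 (128 to 348 reads per library), Mfap5 (146 to 383) and Mfap4 (177 to 512), whose correlations, high or low, are uncertain. Pdgfra and Lum (r = 0.89), Ddr2 and Mfap4 (r = 0.87) and Pdgfra and Ddr2 (r = 0.86) varied together. Pi16 went opposite to Dcn (r = -0.91) and Dpt (r = -0.88). Wild-type replicate 3 had 8 of 10 markers above the wild-type mean, with Lum 0.27 above and Pi16 0.08 below on the log2 scale. Wild-type replicate 2 was the lowest wild-type library for 6 markers, yet the highest for Mfap5. Over the same libraries, the deviations of 10638 genes outside the group were compared with the mean of the 10 markers. The top 5 were Mcm5 (r = 0.99), Phkg1 (r = 0.98), Traf4 (r = 0.98), Eef1aknmt (r = 0.98) and Hspb3 (r = 0.97). As the highest of that many genes over 8 libraries, such r values can arise by chance, and a shared source was not tested.

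**Figure D4:**
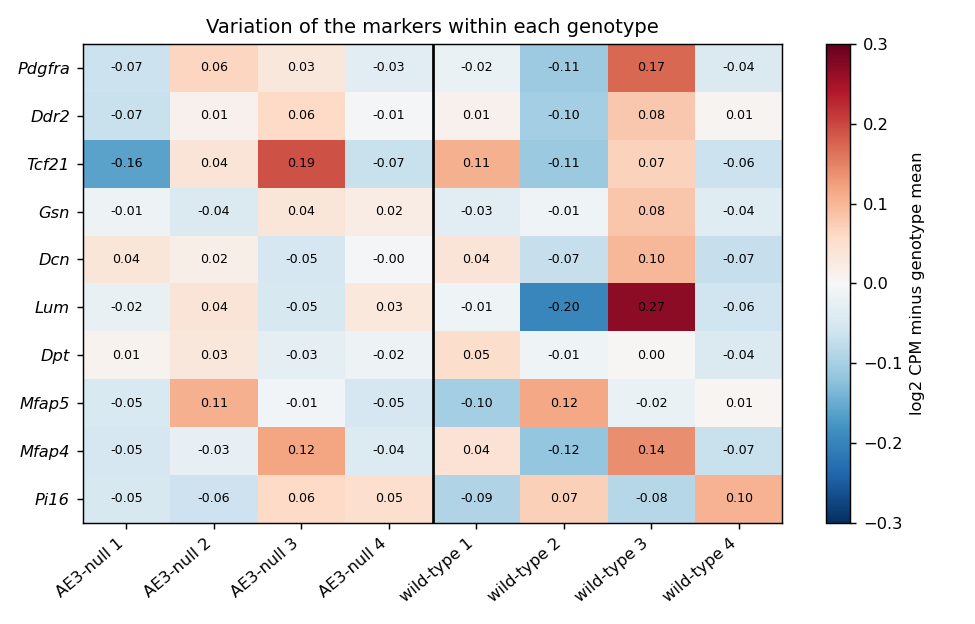
Deviation of each marker's log2 CPM from the mean of its genotype (colour and printed value; rows are markers, columns the 4 AE3-null and then the 4 wild-type libraries). Wild-type replicate 3 is above its genotype mean for 8 markers, and Pi16 is below it there.

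Genes known to accompany Pi16 and Dpt in adventitial, progenitor-like fibroblasts formed a further list, chosen with earlier results of these data known. Of its 17 tested genes 4 fell, Cd248, Ackr3, Anxa3 and Cd55, and none rose, beside 3.31% of all tested genes called lower. The median log2 fold change was -0.12, beside -0.0018 over all tested genes. Cd248, a surface glycoprotein of fibroblasts and pericytes also called endosialin, measured 16.0, 16.2, 20.6 and 16.6 CPM in AE3-null hearts, against 21.8, 21.3, 26.0 and 22.3 CPM in wild-type hearts (log2 -0.39, SE 0.088, edgeR adjusted p 0.0143). Replicate 3 was the highest library of both genotypes, and the genotypes did not overlap. Ackr3, a scavenging chemokine receptor, fell by 0.25 on the log2 scale. It stood at 98.9, 106, 107 and 108 CPM in AE3-null hearts, against 136, 124, 109 and 130.2 CPM in wild-type hearts. Anxa3, an annexin, fell by 0.26 and Cd55, a complement inhibitor of the cell surface, by 0.32. The summed level of the 18 listed genes was 808 to 868 CPM in AE3-null hearts and 918 to 965 CPM in wild-type hearts. A separated sum was not particular to this list. It was also lower in AE3-null hearts for the microfibril list below (1376 to 1472 against 1477 to 1534 CPM in wild-type hearts). The same held for the PDGF and collagen receptor list (838 to 860 against 870 to 909 CPM). The CAP family sum was separated the other way (132 to 145 against 119 to 130 CPM). These sums carry no test.

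That count depended on single libraries. By edgeR it was 0 when AE3-null replicate 4 was left out, 1 for AE3-null replicate 1 or wild-type replicate 4, 2 for wild-type replicate 1, and 6 for wild-type replicate 3 (5 lower and 1 higher). Beside that count of 0, 7 genes had an unadjusted p under 0.05 in the full data, as did 21% of all tested genes. DESeq2 and limma voom called 4 each. The call of Cd248 was lost without AE3-null replicate 1 or 4 (edgeR adjusted p 0.0550 and 0.0619), that of Ackr3 without AE3-null replicate 1 or 4 or wild-type replicate 4 (0.0600, 0.0506 and 0.0726), and that of Cd55 without AE3-null replicate 1 or 4 or wild-type replicate 1 or 4 (0.0732, 0.114, 0.0805 and 0.0838). Anxa3 lost its call without any single library other than AE3-null replicate 3 and wild-type replicate 3 (edgeR adjusted p 0.0510 to 0.0937). Ackr3, Cd34, Ly6a, Ly6c1 and Procr of this list are also made by endothelial cells. The 10 endothelial markers summed to 1386 to 1446 CPM in AE3-null hearts and 1552 to 1704 CPM in wild-type hearts, and their part in the result was not tested.

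The called genes among collagens and other fibroblast genes went both ways. Of 27 tested genes 2 rose, Col14a1 and Abca8a, and 2 fell, Sparc and Fstl1, beside 3.16% and 3.31% of all tested genes. Of the 27 log2 fold changes 22 were negative and the median was -0.08. Col14a1, a fibril-associated collagen, measured 36.7, 36.4, 41.3 and 44.6 CPM in AE3-null hearts, against 34.8, 30.7, 32.2 and 33.6 CPM in wild-type hearts (log2 0.28, SE 0.067, edgeR adjusted p 0.0198). Sparc, a collagen-binding matricellular protein also made by endothelial cells, averaged 474 ± 26.1 CPM in AE3-null hearts and 543 ± 33.7 CPM in wild-type hearts (SD, n = 4 each; log2 -0.20, SE 0.048, edgeR adjusted p 0.0210). Abca8a, a lipid transporter, rose by log2 0.31 and the secreted glycoprotein gene Fstl1 fell by 0.20. By edgeR this list had 0 calls when AE3-null replicate 4 was left out, 1 for AE3-null replicate 3 or wild-type replicate 1 or 4, 2 for AE3-null replicate 1 or 2, and 6 for wild-type replicate 3. In the full data 11 had an unadjusted p under 0.05, 9 of them lower and 2 higher, beside 21% of all tested genes in either direction. DESeq2 and limma voom called 4 each. Sparc lost its call without AE3-null replicate 3 or 4 or wild-type replicate 1 (edgeR adjusted p 0.0680, 0.0753 and 0.0628) or with total counts only (0.0590), and Col14a1 without AE3-null replicate 3 or 4 or wild-type replicate 2 or 4 (0.0609, 0.0827, 0.0552 and 0.0505). The adjusted p of Abca8a was 0.0811 to 0.119 without AE3-null replicate 1, 2, 3 or 4 or wild-type replicate 1 or 4 and 0.0734 with no low-count filter, and that of Fstl1 was 0.0662 to 0.0762 without AE3-null replicate 1, 2 or 4 or wild-type replicate 1 or 4.

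Among the small leucine-rich proteoglycans, the family of Dcn and Lum, 1 of 10 tested genes was called, beside 6.47% of all tested genes. Podn, which encodes podocan, a collagen-binding protein of vessel walls, rose to 57.2, 48.5, 55.6 and 62.2 CPM in AE3-null hearts, against 34.6, 35.7, 43.9 and 35.4 CPM in wild-type hearts. Wild-type replicate 3 was again the highest wild-type library, and the genotypes did not overlap. The log2 fold change of Podn was 0.59 (SE 0.087, edgeR adjusted p 0.00255), and its call held under all 17 alternatives. The median of the family was -0.05, and 3 of its genes were called without wild-type replicate 3.

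The list of microfibril and elastic fibre genes was also split. It includes genes that share the Mfap name, such as Mfap3l, whose place in microfibrils was not examined. Of 19 tested genes 2 rose and 2 fell, beside 3.16% and 3.31% of all tested genes, and the median was -0.07. Emilin2, an elastin-interface protein, averaged 30.4 ± 1.13 CPM in AE3-null hearts and 25.5 ± 1.21 CPM in wild-type hearts (SD, n = 4 each; log2 0.25, SE 0.054, edgeR adjusted p 0.0113), a call that held under all 17 alternatives. Mfap3l rose by log2 0.23. The latent TGF-beta binding protein gene Ltbp2 fell by 0.35 and the collagen crosslinking enzyme Loxl2 by 0.26 on the log2 scale. The count of 4 was 2 when AE3-null replicate 2 or 4 or wild-type replicate 2 or 4 was left out. Mfap3l lost its call without AE3-null replicate 3 or 4 or wild-type replicate 2 or 4 (edgeR adjusted p 0.0570, 0.0768, 0.0540 and 0.0772). Ltbp2 lost it without AE3-null replicate 2 or 3 or wild-type replicate 2 or 4 (0.0508, 0.0656, 0.0609 and 0.0851). Loxl2 lost it without AE3-null replicate 1, 2 or 4 or wild-type replicate 1 (0.0813, 0.0908, 0.0827 and 0.0951), with total counts only (0.0587), by limma voom (adjusted p 0.0562) and by edgeR without robust moderation (0.0527).

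Ltbp2 was also the only called gene of 23 tested for TGF-beta signalling and myofibroblast activation, beside 6.47% of all tested genes. The median of this list was -0.11. This list holds the usual signs of activated fibroblasts, such as Postn, Acta2 and Fn1. By edgeR 0 were called when AE3-null replicate 3 or wild-type replicate 2 or 4 was left out, 2 for wild-type replicate 1 and 3 for wild-type replicate 3. In the full data 8 had an unadjusted p under 0.05, 6 of them lower, beside 21% of all tested genes in either direction. DESeq2 and limma voom called 2 each.

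Relatives and partners of the receptors and of Gsn differed in how many were called. None of 12 PDGF ligands, PDGF receptors and collagen receptors was called by edgeR, DESeq2 also called none and limma voom called 1. An unadjusted p under 0.05 was held by 3, all lower, beside 21% of all tested genes in either direction. The median of these genes was -0.12. The nearest was Pdgfb, a ligand made by endothelial cells, at 50.1 to 58.2 CPM in AE3-null hearts and 56.7 to 62.2 CPM in wild-type hearts (log2 -0.17, edgeR adjusted p 0.0563). It was called without AE3-null replicate 2 (0.0308) or wild-type replicate 3 (0.0175). The collagen receptor Itga1, at log2 -0.22, was called without wild-type replicate 3 (edgeR adjusted p 0.0268). Of 5 tested relatives of Gsn 3 were called, beside 6.47% of all tested genes: Scin and Svil rose and Capg fell. Scin, a low-level actin-severing protein, stood at 3.53 to 3.90 CPM in AE3-null hearts and at 1.51 to 2.57 CPM in wild-type hearts (log2 0.82, SE 0.16, edgeR adjusted p 0.00596; called under all 17 alternatives). Svil, abundant in muscle, rose by log2 0.17, and the macrophage-enriched Capg fell by 0.27. Svil lost its call without AE3-null replicate 3 or 4 or wild-type replicate 1 (edgeR adjusted p 0.0626, 0.0781 and 0.0709). The adjusted p of Capg was 0.0585 to 0.130 without any single library except wild-type replicates 2 and 3, 0.0544 with total counts only and 0.0532 by DESeq2. Of the 5, 1 was called when AE3-null replicate 3 or 4 or wild-type replicate 1 was left out.

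Among 18 tested transcription factors of fibroblasts 1 was called, Gata6, beside 6.47% of all tested genes. Gata6, which cardiomyocytes also express, rose by log2 0.20 (SE 0.047, edgeR adjusted p 0.0162). It was not called without AE3-null replicate 4 (edgeR adjusted p 0.0619) or wild-type replicate 4 (0.0595), and 2 of the factors were called without wild-type replicate 2. The median of that list was 0.03. Of the CAP family to which Pi16 belongs, Crispld2 alone of 6 tested was called, beside 6.47% of all tested genes, and went opposite to Pi16. Crispld2 measured 110.4 to 123 CPM in AE3-null hearts and 99.9 to 109.9 CPM in wild-type hearts (log2 0.16, SE 0.045, edgeR adjusted p 0.0419). Its call held among single-library omissions only without wild-type replicate 3, with adjusted p-values of 0.0505 to 0.134 in the other 7. Crispld2 was also not called by limma voom (adjusted p 0.0542) or by edgeR without robust moderation (0.0606). The median of the family was 0.01.

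**Figure D5:**
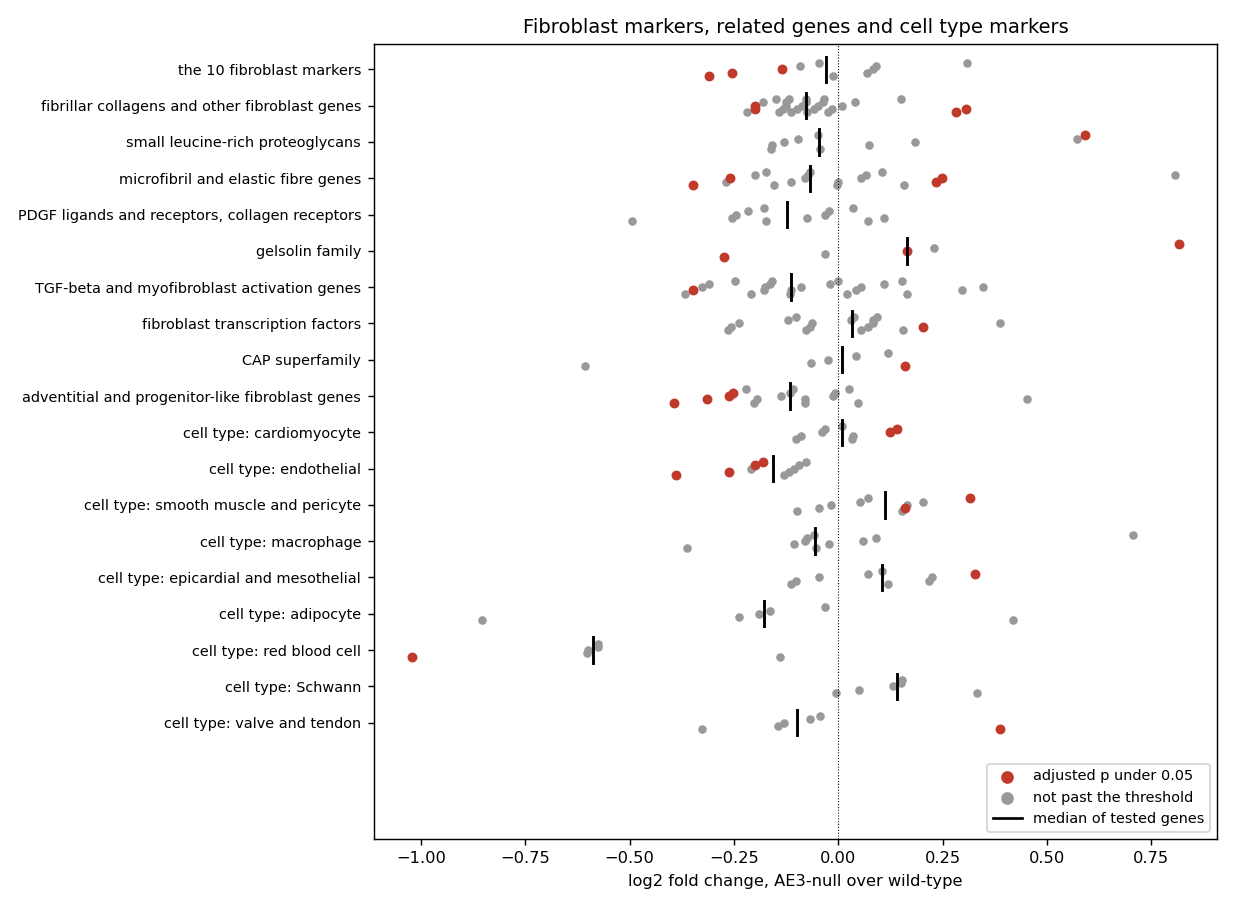
Log2 fold change, AE3-null over wild-type (x axis), of every tested gene of the marker group, its related gene lists and the cell type lists (rows); red points passed an adjusted p of 0.05 and black bars are medians. Red points of the 10 fibroblast markers, the adventitial list and the endothelial list all lie left of 0, and those of the collagen, microfibril and gelsolin lists lie on both sides.

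Markers of the other cells of the heart were measured in the same libraries, and their part in the differences above was not tested. The counts below stand beside 3.16% of all tested genes called higher and 3.31% called lower. Of 10 endothelial markers 4 fell and all 10 log2 fold changes were negative (median -0.16), with Pecam1 at 177 to 199.5 CPM in AE3-null hearts and 218 to 239 CPM in wild-type hearts. The call of Pecam1 held under all 17 alternatives. The endothelial count was 1 when AE3-null replicate 4 was left out and 2 for AE3-null replicate 1, 2 or 3 or wild-type replicate 1. Of 10 smooth muscle and pericyte markers 2 rose (median 0.11; summed level 1572 to 1679 CPM in AE3-null hearts, 1470.0 to 1527 CPM in wild-type hearts), among them the smooth muscle myosin Myh11 by log2 0.32. Of 9 cardiomyocyte markers 2 rose (median 0.01; summed level 98940.5 to 105592 CPM in AE3-null hearts, 98937 to 107090.0 CPM in wild-type hearts). Of 9 epicardial and mesothelial markers 1 rose (median 0.10; 103 to 119 CPM in AE3-null hearts, 94.1 to 106 CPM in wild-type hearts), and of 6 tested valve and tendon markers 1 rose (median -0.10; 121 to 128 CPM in AE3-null hearts, 118 to 143 CPM in wild-type hearts). Of 6 red blood cell markers 1 fell (median -0.59; 2840.2 to 3952 CPM in AE3-null hearts, 4084 to 6499.9 CPM in wild-type hearts), and DESeq2 and limma voom called 5 each.

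No macrophage marker of 10 was called by edgeR, DESeq2 called 1 and limma voom none. Their median was -0.06, and they summed to 502 to 576 CPM in AE3-null hearts and 518 to 587 CPM in wild-type hearts. An unadjusted p under 0.05 was held by 1, beside 21% of all tested genes. No adipocyte marker of 6 tested was called by edgeR, DESeq2 or limma voom, and none had an unadjusted p under 0.05 (median -0.18; 303 to 408 CPM in AE3-null hearts, 377 to 424 CPM in wild-type hearts). The same held for 6 tested Schwann cell markers (median 0.14; 33.7 to 41.3 CPM in AE3-null hearts, 31.4 to 39.0 CPM in wild-type hearts). Single libraries decided several of these small counts. Leaving out AE3-null replicate 4 gave 1 smooth muscle call and 0 valve calls, and leaving out wild-type replicate 4 gave 0 epicardial and 0 red blood cell calls. The epicardial count was 0 also when AE3-null replicate 3 was left out, and the valve count was 0 for wild-type replicate 1 and 2 for wild-type replicate 3. The red blood cell count was 2 for wild-type replicate 2, the cardiomyocyte count was 1 for every library but AE3-null replicate 4, the macrophage count was 1 for AE3-null replicate 1 and the adipocyte count was 1 for AE3-null replicate 2. No marker of these cell type lists was at 0 in every library.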

How the data were processed

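The authors deposited read counts per gene, not normalized, in 1 table with a column for each library. Per the submitters' processing notes, the tools were bcl2fastq, CASAVA 1.8, TopHat and DESeq with genome build mm9; which program counted the reads, on which annotation and with what strand setting is not given in the sources used here. Symbols for 23185 of 23282 Entrez numbers and the promoter sequences came from RefSeq GRCm38.p6, and exon lengths from GENCODE. Of the 10 markers, 1 overlaps another counted gene and 5 overlap other RefSeq models.

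Genes kept by filterByExpr (minimum count 10) were tested with edgeR's quasi-likelihood method (TMM factors, robust, no covariates), and p-values were adjusted by Benjamini-Hochberg over all 14136 genes. An SE is the log2 fold change divided by the root of its F value. The code was tested on simulated data. Members and gene lists were chosen with earlier results of these data known. Genes were named by a rule: all markers, up to 4 called genes of a list with the smallest p (2 where none was called), and the 5 genes most like the markers' mean deviation (mean of at least 5 CPM). Alternatives covered size factors, filters, tools (DESeq2 1.42.0, limma voom 3.58.1), robust moderation, an adjusted p under 0.1, the 10 most abundant genes, each library and a replicate block. Versions of R and edgeR were 4.3.3 and 4.0.16.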

Additional observations from a re-analysis of the deposited data

Results flagged for a closer look

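Mfap4 in AE3-null replicate 3, at 21.1 CPM, lay apart from the other 3 AE3-null libraries, which were at 18.7 to 19.1 CPM; the gap was 0.859 of the group's range. Among 22 groups of 4 libraries looked at this was the only such sample, and chance gives about 1 in 20.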

How the results depend on the processing

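The 10 markers kept their side of the threshold in 147 of 170 comparisons of a marker with an alternative; in 17 a call was lost and in 6 a call was gained. No called value changed sign. The markers called numbered 1 to 6 with single libraries left out (1 to 3 lower, 0 to 3 higher). With total counts only, and likewise with a block on replicate number, 1 was called, Pi16, which was lower. One marker, Lum, was called higher by DESeq2, by limma voom, by edgeR without robust moderation and at an adjusted p under 0.1, 1 in each. The replicate block gave adjusted p-values of 0.0543 for Dpt, 0.0511 for Mfap5 and 0.00269 for Pi16. Same-numbered libraries had correlations of their deviations of 0.30, 0.01, 0.10 and 0.01 for numbers 1 to 4; as not every pair was over 0.1 and no label ties the numbers to a litter or day, they were not treated as pairs, and pairing of number 1 was not excluded. The block gave 1002 calls over all genes, against 915. Over all genes, single omissions gave 407 (AE3-null replicate 4) to 1727 (wild-type replicate 3) calls, and an adjusted p under 0.1 gave 1546. In the related and cell type lists together 29 genes were called, 10 to 40 with single libraries left out (10 when AE3-null replicate 4 was omitted, 40 for wild-type replicate 3) and 44 at an adjusted p under 0.1. Total counts only moved the median of all genes to 0.02. The lowest count behind a marker, 128 reads, limits what small differences of Tcf21 could show.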
